A study of Mus musculus with 32 samples.

Results

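The comparison described here is the effect of 12 weeks of fat-rich feeding on CD11c+ macrophages of the epididymal fat of wild-type mice. Its members were the 4 libraries of high-fat diet (HFD) and the 4 of standard diet (SD) whose titles name wild-type mice and CD11c+ cells, 8 of the 32 libraries of the series. All mice were C57BL/6J. The series sets wild-type (WT) mice beside mice with a myeloid-specific knockout (KO) of A20, the product of Tnfaip3 and a brake on NF-kB signalling. The sources used here do not give the alleles of the WT mice, the Cre driver of the KO, the make-up of the diets, or the age, sex and number of the animals. The cells were sorted by flow cytometry as low for CD206 and high for CD11c. Further libraries served for contrast only. They were CD206+ cells (high for CD206, low for CD11c) of WT mice on both diets, and CD11c+ cells of KO mice on both diets, each with 4 libraries per diet after 12 weeks. The labels do not tie the 4 libraries of a group to separate mice, and the spread behind each p-value is that between libraries, which may be technical.

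Macrophages of adipose tissue clear dead adipocytes and the lipid they release. They take up lipoproteins and fatty acids through scavenger receptors, break the cargo down in acid lysosomes, store fatty acids in droplets and export cholesterol through ABC transporters. CD11c, an integrin chain encoded by Itgax, marks macrophages that gather around dying adipocytes in obesity, and it is also carried by dendritic cells, so a CD11c gate can hold both. In a bulk sample, fewer cells of a type and less RNA per cell cannot be told apart.

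Gene counts in the 8 libraries summed to between 17941996 and 23832924 reads, over 14337 to 15018 genes detected. The first principal component of their log2 values, with 65.9% of the variance, separated the diets. SD replicate 4 stood apart on the next, at 49.2 against -23.0 to 14.6 in the other 7. Without that library 6156 genes were called instead of 6234. The labels give no batch, so the diet and anything else particular to the SD libraries cannot be told apart. Levels below are counts per 1e6 counts of the library (CPM), scaled by TMM factors, given for replicates 1 to 4 in that order, and changes are log2 fold changes of HFD over SD with their SE. A gene is called where its adjusted p (edgeR quasi-likelihood test, Benjamini-Hochberg over all genes tested) is under 0.05.

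The genes of the sort and of the macrophage lineage were read first. Itgax (chromosome 7, 128129526 to 128150657) stood at 347, 269.6, 285 and 379 CPM on HFD and 218, 200.3, 239 and 291 CPM on SD. The groups overlapped and its change was not past the threshold (0.44 ± 0.28, adjusted p = 0.214), though it was past it (0.44) in a fit of these 8 libraries alone. Mrc1, which encodes CD206, was higher on HFD (598 to 704 CPM on HFD and 401 to 482 CPM on SD, 0.48 ± 0.11, adjusted p = 0.00088). Tnfaip3 itself was lower on HFD, at 803, 641, 615 and 712 CPM on HFD and 1349, 1427, 1647 and 1426 CPM on SD (-1.08 ± 0.20, adjusted p = 3.77e-05). Of 12 pan-macrophage markers, 7 were higher and 4 lower, and their summed level ranged from 22995 to 25964 CPM on HFD and from 33628 to 37845 CPM on SD, with none at 0. Most of that sum on SD was Lyz2, given below, so the lower sum does not stand for the list. The members' median change was 0.69, with 5 called over 2-fold higher and 0 over 2-fold lower. The lineage list itself thus did not stay level. The immunoglobulin receptor Fcgr1 stood at 129, 83.1, 107 and 81.6 CPM on HFD and 7.64, 23.5, 12.2 and 26.5 CPM on SD (2.53 ± 0.25), the apoptotic cell receptor Mertk at 60 to 103 CPM on HFD and 15.5 to 29.9 CPM on SD (1.78 ± 0.21) and Adgre1, the F4/80 antigen, at 1529 to 1808 CPM on HFD and 462 to 754 CPM on SD (1.56 ± 0.13). Lyz2, the lysozyme gene, went the other way (12256 to 15467 CPM on HFD and 26192 to 28708 CPM on SD, -0.99 ± 0.13), as did the lipopolysaccharide co-receptor Cd14 (-0.87 ± 0.21) and the leukocyte antigen Ptprc (-0.89 ± 0.17).

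Of 13453 genes tested, 3196 (23.8%) were higher and 3038 (22.6%) lower on HFD, 46.3% in all. Of these, 1448 (10.8% of genes tested) were higher and 988 (7.34%) lower by over 2-fold. In 5413 genes (40.2%) the 4 HFD and the 4 SD libraries did not overlap. Genes named from the lists were mostly called members with the largest changes. Lack of overlap given for them below is thus not a separate result. The median log2 fold change over all genes was 0.0085, a value that the TMM scaling holds near 0. Where the count of a list moved by over 1.5 times when 1 library was left out, that count is given beside it.

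**Figure D1:**
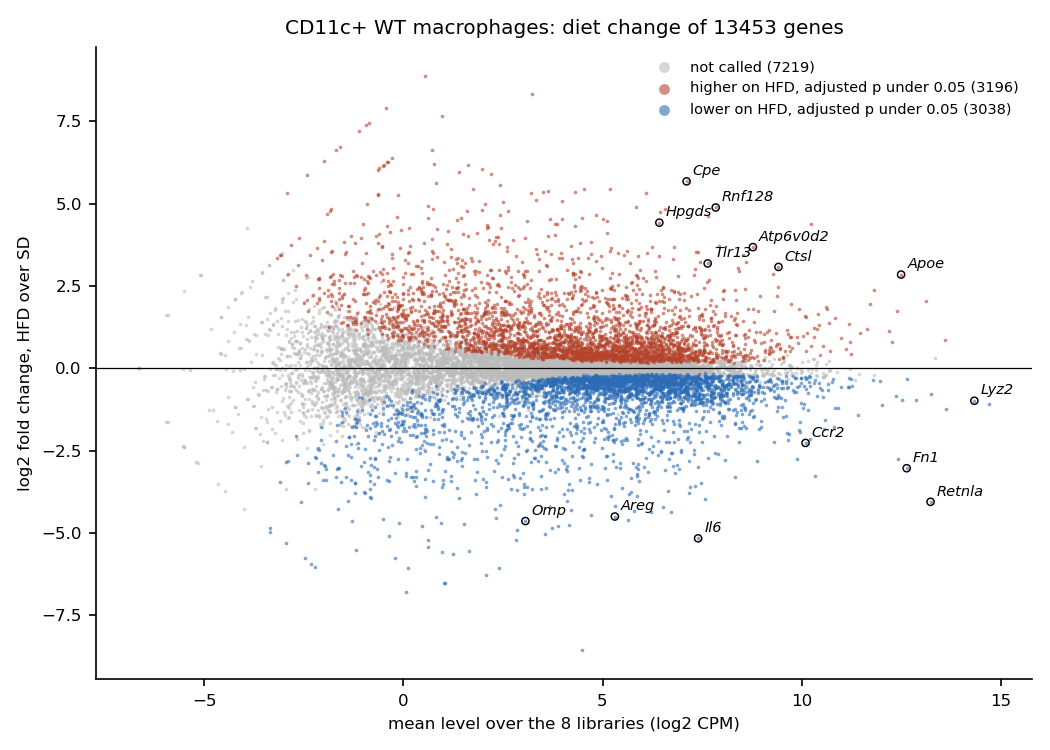
Each point is 1 of 13453 genes, placed by its mean level over the 8 CD11c+ WT libraries (horizontal, log2 CPM) and its log2 fold change of HFD over SD (vertical). Genes called higher (3196) are red, those called lower (3038) blue, others grey, and ringed points carry the names of genes given in the text, with Cpe among the most raised and Il6 among the most lowered.

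Among the genes with the largest rises were some that are better known from neurons or secretory cells. Cpe, a carboxypeptidase that trims peptide hormones (chromosome 8, 64592542 to 64693109), stood at 351, 227, 266 and 241 CPM on HFD and 5.18, 4.1, 3.48 and 8.8 CPM on SD (5.67 ± 0.33, adjusted p = 4.78e-14). Zranb3, a DNA annealing helicase, stood at 209, 99.6, 109 and 114 CPM on HFD and 1.91, 3.52, 3.37 and 4.56 CPM on SD (5.33 ± 0.31). Rnf128, a ubiquitin ligase, stood at 439.9, 327, 447 and 563 CPM on HFD and 6.91, 15.5, 20.7 and 17.5 CPM on SD (4.88 ± 0.37). Each of these was many-fold higher in every HFD library than in any SD library. The signalling adaptor Shc2 (5.08 ± 0.36), the membrane anchor Efr3b (4.89 ± 0.45), the microtubule protein Map2 (5.38 ± 0.53, and 6.10 without SD replicate 2) and the intracellular growth factor homologue Fgf13 (5.36 ± 0.50) followed. Nrcam, a cell adhesion molecule, was at 0, 0.0965, 0 and 0.13 CPM on SD, so few reads that its fitted fold has little meaning, and at 29.1, 12.8, 18.5 and 14.1 CPM on HFD. Lack of overlap between the diets was a condition for naming these genes and is not a separate result.

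At the other end stood Il6, described with the cytokines below, and Areg, amphiregulin, a ligand of the epidermal growth factor receptor (chromosome 5, 91139599 to 91148432). Areg was at 4.32, 3.07, 2.14 and 3.86 CPM on HFD and 90.5, 48.5, 95.1 and 69.8 CPM on SD (-4.50 ± 0.34, adjusted p = 8.7e-12). Tmem154, a membrane protein, stood at 3.95, 16.9, 8.42 and 9.94 CPM on HFD and 209, 165, 185 and 252 CPM on SD (-4.37 ± 0.33). Upb1, an enzyme of pyrimidine breakdown, went from 101, 90.4, 81.4 and 111 CPM on SD to 1.53, 8.35, 2.66 and 3.28 CPM on HFD (-4.59 ± 0.40, and -5.28 without HFD replicate 2). The calcium sensor Otof (-4.76 ± 0.43), the olfactory marker Omp (-4.64 ± 0.51) and the synaptic vesicle protein Sv2b (-5.23 ± 0.64, and -5.96 without HFD replicate 2) were also among the lowest. Akr1c18, a steroid-reducing enzyme, was at 46.7, 27.3, 22.4 and 83.9 CPM on SD and at 0, 0.244, 0.102 and 0.0965 CPM on HFD, where a few reads carry the value.

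Lipid uptake was read from 27 receptors and transporters. On HFD 13 of them were higher and 4 lower (median 0.73), against 23.8% and 22.6% of all genes. Stab1, a scavenger receptor also used for apoptotic cells (chromosome 14, 31139017 to 31168651), stood at 491, 358, 495 and 464 CPM on HFD and 15.7, 43.7, 22.2 and 58.1 CPM on SD (3.70 ± 0.27, adjusted p = 2.8e-12). Cd36, the fatty acid translocase (chromosome 5, 17781690 to 17888959), stood at 5637, 5244, 4999 and 5589 CPM on HFD and 1265, 1793, 1606 and 874 CPM on SD (1.95 ± 0.19). All 4 HFD libraries were above all 4 SD libraries for both receptors. Msr1, the class A scavenger receptor, ranged over 178 to 227 CPM on HFD and 21.5 to 36.8 CPM on SD (2.80 ± 0.16). A pair of fatty acid transport proteins of one family went opposite ways, with Slc27a1 at 1.91 ± 0.21 and Slc27a3 at -3.88 ± 0.35 (3.16 to 12.2 CPM on HFD and 87.2 to 150.1 CPM on SD).

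For lipid droplets and lipolysis, 9 of 22 genes were higher and 4 lower, 2 without SD replicate 4. The genes that rose most included Lipa, Nceh1 and Soat1, which handle cholesteryl esters. Lipa, the acid lipase that frees cholesterol in lysosomes (chromosome 19, 34492316 to 34527474), stood at 2015, 1807, 2007 and 2394 CPM on HFD and 586, 689.6, 647 and 725 CPM on SD (1.63 ± 0.15, adjusted p = 1.73e-10). Nceh1, a neutral cholesteryl ester hydrolase, changed by 1.67 ± 0.12 and Soat1, which esterifies cholesterol, by 1.43 ± 0.11. The droplet coat protein Plin2 ranged over 2360 to 2431 CPM on HFD and 657 to 1166 CPM on SD (1.37 ± 0.21). In cholesterol efflux, 6 of 18 genes were higher and 1 lower. Nr1h3, the liver X receptor that drives this programme (chromosome 2, 91184061 to 91202829), stood at 79.8, 73, 91.6 and 76.4 CPM on HFD and 11.1, 25.6, 16.5 and 21.6 CPM on SD (adjusted p = 1.48e-10), with every HFD library above every SD library. The exporters Abca1 (381 to 527 CPM on HFD and 61.5 to 125 CPM on SD, 2.34 ± 0.23) and Abcg1 (170.4 to 224 CPM on HFD and 63.8 to 115 CPM on SD, 1.28 ± 0.18), the lipoprotein Apoe (2.84 ± 0.20) and the sterol hydroxylase Cyp27a1 (1.51 ± 0.18) were higher as well.

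Lipid synthesis genes were more often lower than higher. Of 25 cholesterol synthesis genes, 1 was higher and 8 lower, with Srebf2, the sterol sensor's transcription factor, at 123, 118, 112 and 153 CPM on HFD and 247, 154, 200.5 and 257 CPM on SD (-0.76 ± 0.17, adjusted p = 0.000377). Mvd, an enzyme of the pathway, was lower too (-1.25 ± 0.18). Hsd17b7 was the gene called higher (0.65 ± 0.26), and it was past the threshold in only 2 of the 8 fits that left out 1 library, those without HFD replicate 3 or SD replicate 1. Without SD replicate 1, 5 genes of the pathway were higher. Of 15 fatty acid synthesis and desaturation genes, 3 were higher and 6 lower. Fasn, the fatty acid synthase, ranged over 21.8 to 32.9 CPM on HFD and 42.4 to 80.1 CPM on SD (-1.33 ± 0.25), and the citrate lyase Acly changed by -0.76 ± 0.11, while the desaturase Fads1 changed by 1.16 ± 0.13. In fatty acid oxidation and the PPAR axis, 11 of 28 were higher, 7 without HFD replicate 3, and 6 lower, with modest sizes such as 0.57 ± 0.08 for the trifunctional protein subunit Hadha. Angptl4, an inhibitor of lipoprotein lipase, changed most (96.3 to 124 CPM on HFD and 25.4 to 66.2 CPM on SD, 1.42 ± 0.41).

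**Figure D2:**
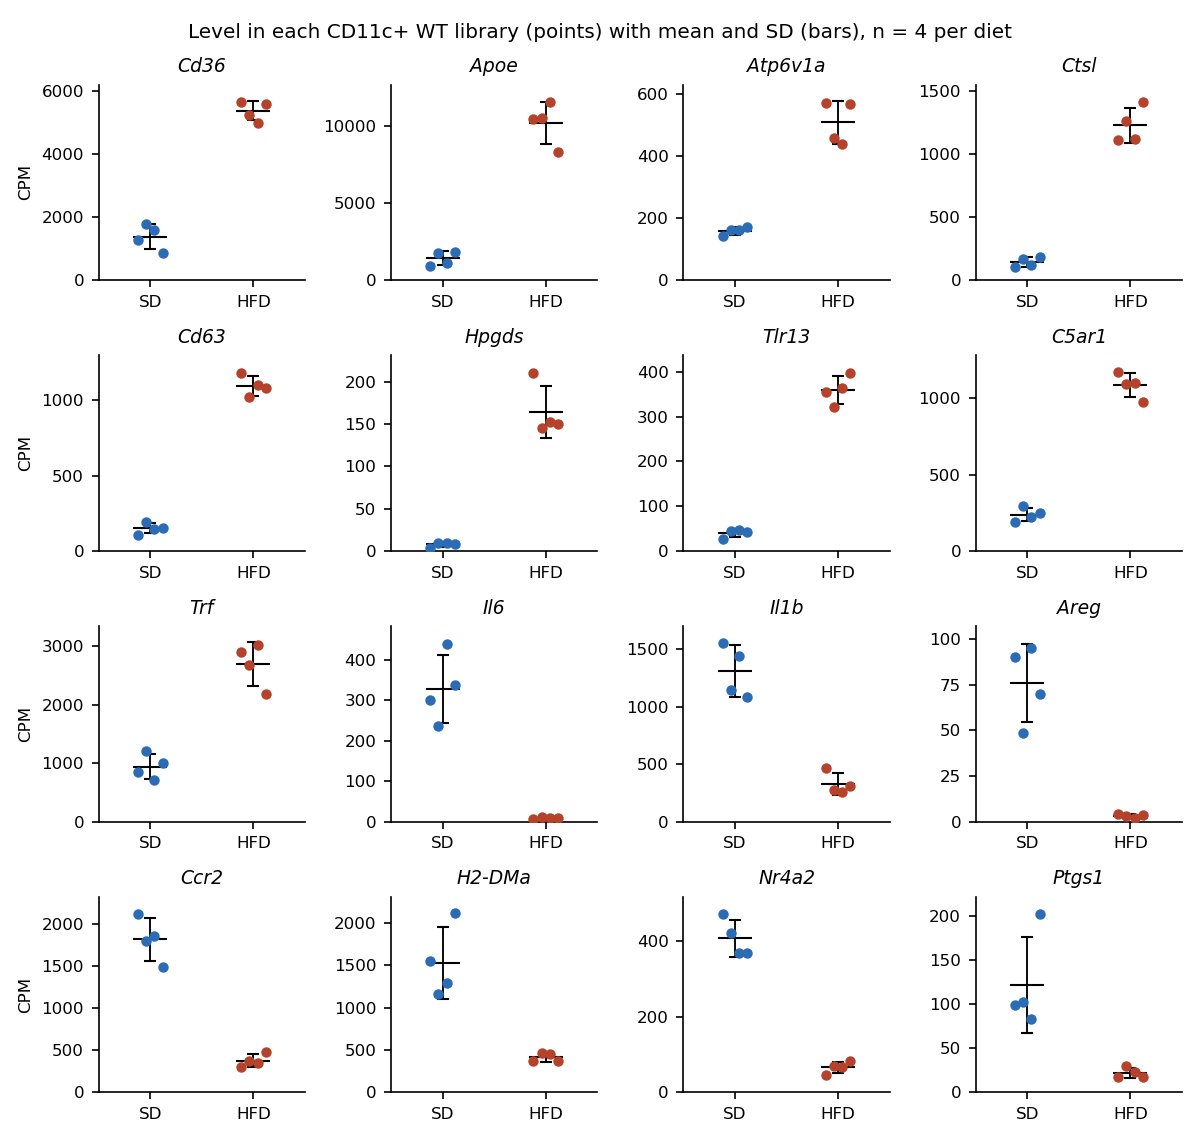
Each panel gives the CPM of 1 gene in the 4 SD (blue) and 4 HFD (red) libraries of CD11c+ WT cells, with the mean and SD as black bars on an axis from 0. All 16 genes are called genes described in the text, so lack of overlap between their diets is not a separate result. The diets did not overlap in 40.2% of all genes tested. Cd36 ranges over 4999 to 5637 CPM on HFD and 874 to 1793 CPM on SD, and Il6 over 6.32 to 10.9 CPM on HFD and 237 to 439.5 CPM on SD.

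The lysosome gave one of the clearest sets of raised genes. Of 31 lysosomal proteases and membrane proteins, 22 were higher and 3 lower, with a median of 0.69. Without SD replicate 4 the counts were 22 and 2. Ctsl, a cysteine protease of the lysosome (chromosome 13, 64361890 to 64370772), stood at 1112, 1260.5, 1115 and 1409 CPM on HFD and 103, 171, 121 and 187 CPM on SD (3.07 ± 0.20, adjusted p = 3.49e-13). Cd63, a tetraspanin of late endosomes (chromosome 10, 128896231 to 128912822), stood at 1182, 1019.8, 1101 and 1082 CPM on HFD and 107, 190.1, 147 and 154 CPM on SD (2.87 ± 0.15). The lowest HFD library of either gene was over 4 times its highest SD library. The proteases Ctsb (13129 to 14968 CPM on HFD and 2903 to 4057 CPM on SD, 2.03 ± 0.11) and Lgmn (1298 to 1387 CPM on HFD and 273 to 420.3 CPM on SD, 1.96 ± 0.13) and the macrophage sialomucin Cd68 (1.22 ± 0.09) were raised as well.

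The vacuolar ATPase is the proton pump that makes the lysosome acid. Of its 19 genes, 12 were higher and 2 lower. The catalytic subunit Atp6v1a (chromosome 16, 44085402 to 44139702) stood at 569, 458, 438 and 567 CPM on HFD and 141, 161, 161 and 171 CPM on SD (1.68 ± 0.13, adjusted p = 1.29e-11). The 2 isoforms of the membrane subunit a went opposite ways, with Atp6v0a1 at 735, 586, 639 and 799 CPM on HFD and 158, 194, 191 and 246 CPM on SD (1.81 ± 0.14) and Atp6v0a2 at 123, 125, 113 and 129 CPM on HFD and 239, 193, 270.4 and 296 CPM on SD (-1.03 ± 0.11). Neither pair of groups overlapped. The largest change was in Atp6v0d2, an isoform of subunit d known from osteoclasts (869, 832, 791 and 766 CPM on HFD and 34.7, 88.8, 78 and 53.5 CPM on SD, 3.68 ± 0.35). Of 26 autophagy genes and transcription factors of the MiT-TFE family, which drive lysosomal genes, 15 were higher and 4 lower. The family's 4 factors changed unequally. Mitf stood at 96, 73.1, 84.3 and 72.6 CPM on HFD and 39.1, 47.7, 43.4 and 36 CPM on SD (0.97 ± 0.15) and Tfeb at 108, 106, 116 and 108 CPM on HFD and 86.4, 65.1, 77.5 and 98.7 CPM on SD (0.42 ± 0.10, adjusted p = 0.00108). Tfec was rare (4.27 to 4.83 CPM on HFD and 0.267 to 1.11 CPM on SD, 2.89 ± 0.25), and Tfe3 was not called (187 to 199 CPM on HFD and 159 to 215 CPM on SD, 0.13 ± 0.09, adjusted p = 0.262) unless SD replicate 4 was left out (0.25). The folliculin partner Fnip2 was at 1.69 ± 0.13 and the autophagosome protein Gabarapl1 at 1.00 ± 0.11, while the Beclin partner Uvrag was at -0.75 ± 0.11. Sphingolipid breakdown also takes place in the lysosome. Of 28 sphingolipid genes, 15 were higher and 6 lower (3 without SD replicate 3), with raised genes such as the galactosylceramidase Galc (146, 148, 146 and 150.4 CPM on HFD and 24.4, 30.2, 25.8 and 34.3 CPM on SD, 2.36 ± 0.13), the alpha-galactosidase Gla (114, 100.5, 113 and 119 CPM on HFD and 42.9, 55.5, 43.6 and 38.5 CPM on SD, 1.30 ± 0.17), the beta-galactosidase Glb1 (113, 99.8, 119 and 114 CPM on HFD and 58.8, 63.2, 57.6 and 79.2 CPM on SD, 0.78 ± 0.11) and the sphingomyelinase Smpd3 (1.97 ± 0.26). Gm2a, the activator protein of ganglioside breakdown, fell most (534, 709, 626 and 769 CPM on HFD and 2383, 2187, 2121 and 2739 CPM on SD, -1.84 ± 0.12).

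Factors of the MiT-TFE family bind E-boxes of the letters CACGTG, and NF-kB and AP-1 bind motifs found before many cytokine genes. The promoters of a pair of raised lysosomal enzymes and of the lowered cytokine Il6 hold such letters. They are shown because they hold a match, because their genes are described here, and because the start used is the outermost one of the gene. The sequences are those of RefSeq on GRCm38.p6, the 250 bases before the start, 5′ to 3′ on the gene's own strand. The window of Gla lies at chrX:134601006-134601255 on the minus strand, and capitals mark CACGTG. That of Glb1 lies at chr9:114400828-114401077 on the plus strand, and capitals mark CACGTG and the AP-1 letters TGACTCA or their reverse complement. That of Il6 lies at chr5:30012864-30013113 on the plus strand, and capitals mark the NF-kB letters (GGGA, any base, TTTCC) and the AP-1 letters, each on either strand.
Gla: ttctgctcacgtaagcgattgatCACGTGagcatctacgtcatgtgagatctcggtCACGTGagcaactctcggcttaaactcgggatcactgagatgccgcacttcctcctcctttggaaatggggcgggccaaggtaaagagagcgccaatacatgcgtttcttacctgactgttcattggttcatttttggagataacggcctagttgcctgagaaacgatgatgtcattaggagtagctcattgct
Glb1: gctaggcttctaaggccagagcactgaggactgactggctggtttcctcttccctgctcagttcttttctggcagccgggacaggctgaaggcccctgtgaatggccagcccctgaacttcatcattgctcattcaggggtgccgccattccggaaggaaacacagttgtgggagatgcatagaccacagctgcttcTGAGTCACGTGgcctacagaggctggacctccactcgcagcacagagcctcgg
Il6: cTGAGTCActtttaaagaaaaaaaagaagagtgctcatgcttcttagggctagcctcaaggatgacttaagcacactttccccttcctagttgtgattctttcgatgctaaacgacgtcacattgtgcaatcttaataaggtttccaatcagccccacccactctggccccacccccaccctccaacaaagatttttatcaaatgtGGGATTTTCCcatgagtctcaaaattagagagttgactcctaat

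In Gla the 2 matches begin 227 and 194 bases before the start. In Glb1 CACGTG begins 48 bases and the AP-1 match 53 bases before it, so that these matches overlap and share their CA. In Il6 the NF-kB match begins 44 bases and the AP-1 match 249 bases before the start. Both strands were searched in windows of 250 bases before to 50 after a start, 32851 windows in all. CACGTG was in 7.15% of these windows and in 11.6% of the 10243 tested genes with a window. It was in 10.2% of genes called over 2-fold higher and 11.7% of those over 2-fold lower, so the raised genes held it no more often than tested genes at large. It was in 8 of 25 lysosomal list members with a window in 4 of 13 pump subunits and in 8 of 24 sphingolipid genes. These shares are descriptions with no test. CATGTG was in 14.2% of windows, 10.6% of tested, 12.6% of raised and 13.4% of lowered genes. TGACTCA was in 5.2%, 4.7%, 6.92% and 7.2% in the same order. The NF-kB letters were in 0.411%, 0.527%, 0.646% and 0.951%, and in 4 of 28 cytokine genes with a window. A match is a run of letters, not a bound site. CACGTG reads the same on both strands, and none of the 4 motifs contains another, though they can overlap at their ends.

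The lipid-associated macrophage is a state known from the fat of obese mice and people. Of 30 of its genes, 24 rose and 1 fell (median 1.81). Trem2, a lipid-sensing receptor of this state (chromosome 17, 48346401 to 48352276), stood at 789, 660.1, 667 and 598 CPM on HFD and 34.6, 54.7, 63.6 and 95.9 CPM on SD (3.45 ± 0.25, adjusted p = 4.25e-12). Spp1, osteopontin, stood at 234, 156, 175 and 231 CPM on HFD and 11.4, 25.9, 17.2 and 25.9 CPM on SD (3.31 ± 0.49). Both were several-fold higher in every HFD library. Syngr1 (4.66 ± 0.52, and 5.31 without SD replicate 4), Ctsk (4.63 ± 0.51) and Gpnmb (4.37 ± 0.58) had the largest rises of the list. The member that fell was Dcstamp, a fusion protein of multinucleated cells, at 71.9, 71.2, 79.6 and 85.8 CPM on HFD and 187, 164, 201 and 156 CPM on SD (-1.20 ± 0.23), and 2 members fell without SD replicate 3. The list of osteoclast and giant cell genes, which shares members with the former, was higher in 14 of 20 and lower in 3. Its other raised members included Acp5, the tartrate-resistant phosphatase (80.8 to 106 CPM on HFD and 22.6 to 33.9 CPM on SD, 1.79 ± 0.20), and Cd109 (3.32 ± 0.45), while the gelatinase Mmp9 was lower (-1.74 ± 0.40).

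**Figure D3:**
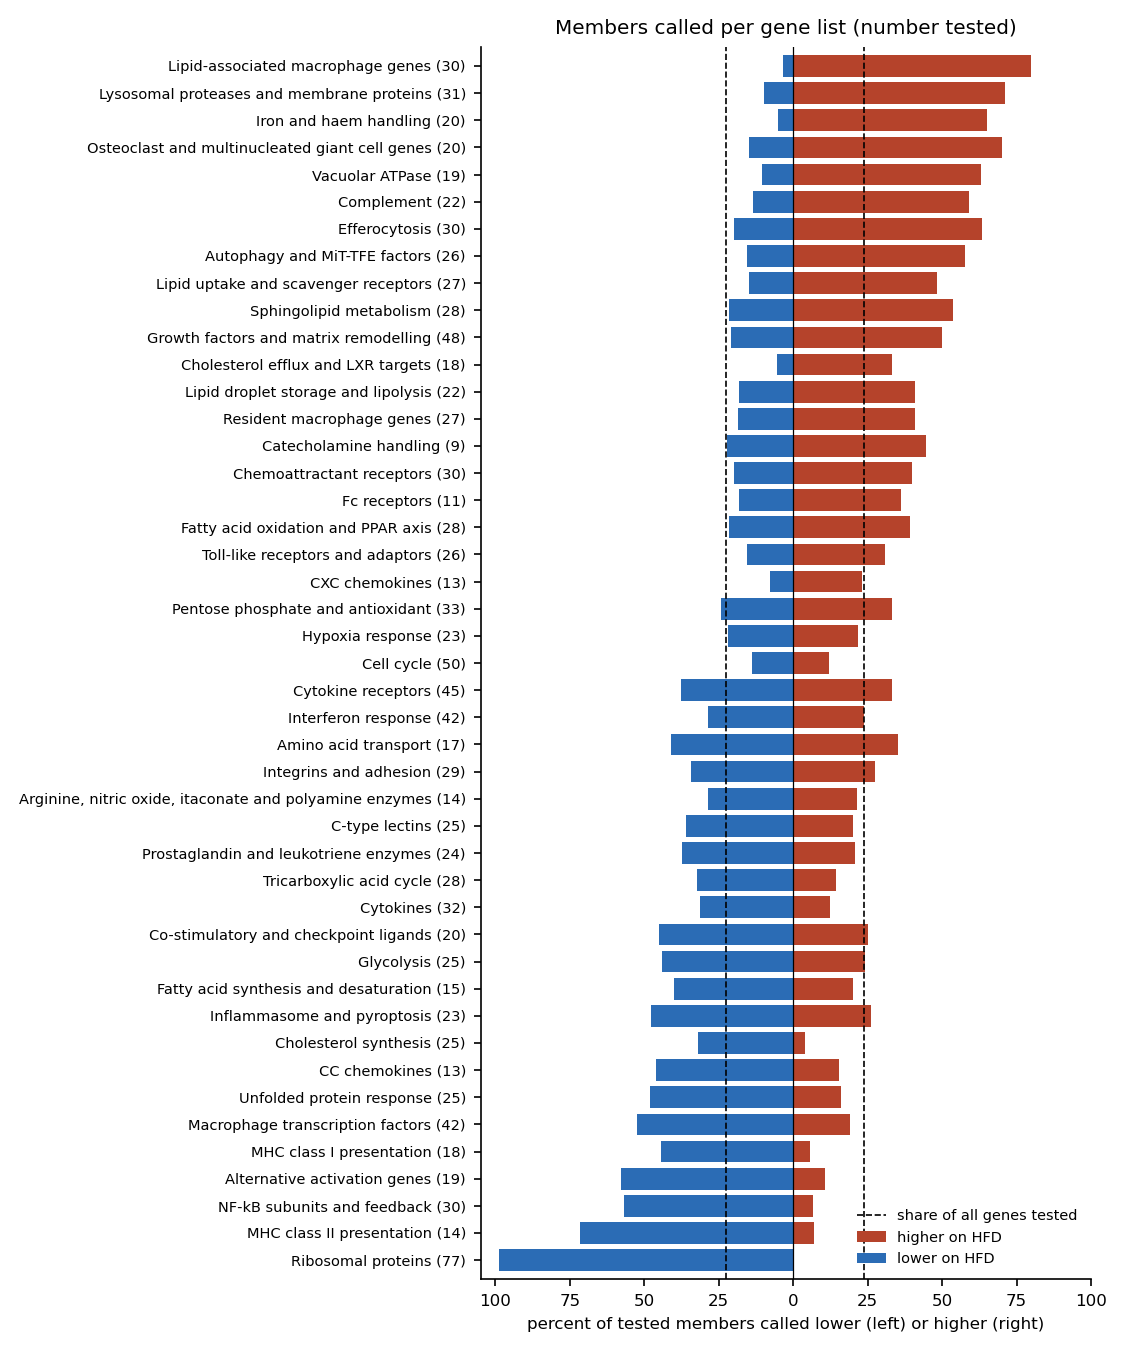
Bars give, for each of 45 gene lists, the percent of tested members called higher (red, to the right) and lower (blue, to the left) on HFD in CD11c+ WT cells, with the number tested in brackets. Dashed lines mark the shares over all genes, 23.8% higher and 22.6% lower. Lipid-associated and lysosomal lists lie at the raised end and ribosomal proteins at the lowered end.

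Genes for the clearance of dead cells were mostly raised. Of 30 efferocytosis genes, 19 were higher and 6 lower (median 0.68). Itgb5, the beta chain of a vitronectin receptor (chromosome 16, 33829665 to 33949338), stood at 681, 592, 619.5 and 551 CPM on HFD and 49.2, 96.2, 74.2 and 94 CPM on SD (2.96 ± 0.17, adjusted p = 4.61e-14). The bridging proteins Mfge8 (349.9, 254, 242 and 284 CPM on HFD and 27.5, 38.9, 30.5 and 43.3 CPM on SD, 3.01 ± 0.28) and Gas6 (148 to 219.8 CPM on HFD and 20.9 to 60.2 CPM on SD, 2.34 ± 0.27), which link phosphatidylserine to receptors of the engulfing cell, were higher too. In the complement list 13 of 22 were higher and 3 lower. C3ar1, the receptor of C3a, stood at 1309, 1087, 1051 and 1159.8 CPM on HFD and 155, 244, 191 and 245 CPM on SD (2.46 ± 0.13), and C5ar1, that of C5a, at 979 to 1171 CPM on HFD and 188 to 295 CPM on SD (2.19 ± 0.13). Vsig4, a complement receptor of resident macrophages, stood at 22.1, 17, 22.2 and 10.9 CPM on HFD against 0.182, 0.579, 0 and 1.17 CPM on SD. Of 11 Fc receptor genes, 4 were higher and 2 lower. The inhibitory Fcgr2b was lower (167 to 227 CPM on HFD and 336 to 529 CPM on SD, -1.23 ± 0.14) where the activating Fcgr4 was higher (1.16 ± 0.22), and the family's sequences are alike, so reads may be split between its members. Fcrls, an Fc receptor-like protein, stood at 206, 310.4, 267 and 188 CPM on HFD and 2484, 1702, 2129 and 3040.2 CPM on SD (-3.27 ± 0.28).

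Iron and haem handling was also raised, in 13 of 20 genes with 1 lower, 2 without SD replicate 2. The iron carrier transferrin, Trf (chromosome 9, 103208876 to 103230286), stood at 2903, 2678, 3025 and 2180.3 CPM on HFD and 843, 1200.2, 719.5 and 1001 CPM on SD (1.52 ± 0.18, adjusted p = 2.92e-08). Blvrb, a biliverdin reductase, was at 123 to 185 CPM on HFD and 33.6 to 53.1 CPM on SD (1.82 ± 0.14), and Slc40a1, the iron exporter ferroportin, at 28 to 46.1 CPM on HFD and 2.77 to 11.3 CPM on SD (2.47 ± 0.56). The haemoglobin scavenger receptor Cd163 was the lowered member (48.5 to 72.9 CPM on HFD and 124 to 145 CPM on SD, -1.04 ± 0.32). Antioxidant and pentose phosphate genes were not raised as a list. Of 33 such genes, 11 were higher and 8 lower (median -0.013), against 23.8% and 22.6% of all genes. The members given next are among the raised. The peroxiredoxin Prdx1 stood at 2069, 1754, 3021 and 3154 CPM on HFD and 686, 797, 737 and 631 CPM on SD (1.81 ± 0.14). HFD replicates 3 and 4 were the higher ones for Prdx1, and for the glutathione enzyme Gclm (48.5, 54.5, 117 and 139 CPM on HFD and 32.3, 33.9, 34.2 and 33.2 CPM on SD, 1.43 ± 0.21) and the sulfiredoxin Srxn1 (119, 98.4, 184 and 233 CPM on HFD and 51.7, 51.1, 58.6 and 66.3 CPM on SD, 1.48 ± 0.18) as well.

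Pattern receptors changed in both directions. Of 26 Toll-like receptors and adaptors, 8 were higher and 4 lower, together a share close to the 46.3% of all genes. Endosomal receptors of RNA were among the raised. Tlr13, which senses bacterial ribosomal RNA (chromosome X, 106143275 to 106160493), stood at 355, 322, 364 and 398 CPM on HFD and 26.4, 44.2, 46.4 and 41.8 CPM on SD (3.18 ± 0.17, adjusted p = 1.72e-14). Tlr7 stood at 122, 120.1, 135 and 102 CPM on HFD and 22.3, 32.2, 26.1 and 21 CPM on SD (2.23 ± 0.13) and Tlr8 at 171, 153, 171 and 165 CPM on HFD and 48.8, 57.2, 41.4 and 45.8 CPM on SD (1.77 ± 0.14). None of the 3 overlapped between diets. At the cell surface Tlr1 was higher (65.8 to 101 CPM on HFD and 14.6 to 21.6 CPM on SD, 2.20 ± 0.14), whereas Tlr2, with which it pairs, stood at 429.6 to 541 CPM on HFD and 425 to 543 CPM on SD and was not called (0.09 ± 0.18, adjusted p = 0.72). Of 25 C-type lectins, 5 were higher and 9 lower. Cd209a, a DC-SIGN homologue also used as a dendritic cell marker, stood at 7.48, 27.2, 29.2 and 34.3 CPM on HFD and 309, 444, 207 and 217 CPM on SD (-3.58 ± 0.51), with HFD replicate 1 the lowest. Mgl2, a galactose lectin, was lower (37 to 83.6 CPM on HFD and 357 to 601 CPM on SD, -2.77 ± 0.29), while Clec4d (2.21 ± 0.28) and the scavenger lectin Colec12 (2.30 ± 0.25) were higher.

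Several secreted mediators of inflammation were lower on HFD. Of 32 cytokine genes, 4 were higher and 10 lower. Il6 (chromosome 5, 30013114 to 30019975) stood at 6.32, 10.9, 9.14 and 10.2 CPM on HFD and 302, 237, 439.5 and 337 CPM on SD, so its highest HFD library was over 20 times below its lowest SD library (-5.16 ± 0.43, adjusted p = 4.25e-11). Il1b, the main cytokine of the inflammasome (chromosome 2, 129364569 to 129371164), stood at 463, 271, 257 and 309 CPM on HFD and 1554, 1146, 1440 and 1087 CPM on SD (-2.01 ± 0.32, adjusted p = 5.24e-06). Il1a (7.35 to 17.5 CPM on HFD and 29.5 to 87.6 CPM on SD, -2.16 ± 0.34) and Il18 (-1.19 ± 0.18) were lower too. Tnf was not called, at 262, 198, 149 and 209 CPM on HFD and 164, 211, 319 and 288 CPM on SD (-0.26 ± 0.24, adjusted p = 0.407), and its groups overlapped. Il10, which restrains macrophage activation, was higher (44.8, 22.7, 29.4 and 25.2 CPM on HFD and 8.64, 11, 8.39 and 8.34 CPM on SD, 1.74 ± 0.27). In the inflammasome and pyroptosis list 6 of 23 were higher and 11 lower, with the ATP-gated channel P2rx7 among the raised (113 to 133 CPM on HFD and 42.7 to 57.4 CPM on SD, 1.25 ± 0.11) and pyrin, Mefv, among the lowered (-1.46 ± 0.38).

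Of 30 NF-kB subunits and feedback inhibitors, 17 fell and 2 rose. Traf1, a target and adaptor of the pathway, stood at 16.6, 22.4, 22.4 and 22.1 CPM on HFD and 59.9, 65.1, 78 and 56.1 CPM on SD (-1.63 ± 0.18, adjusted p = 1.31e-08). The kinase Map3k14 (-1.19 ± 0.18) and the ribonuclease Zc3h12a (-1.10 ± 0.21), which degrades cytokine mRNAs, were lower, and the raised pair was Ikbke (55.2 to 62.9 CPM on HFD and 9.78 to 23.2 CPM on SD, 1.81 ± 0.24) and Tnfaip2 (228 to 287 CPM on HFD and 65.8 to 76 CPM on SD, 1.83 ± 0.22). Immediate early genes, which respond to stimuli within minutes and also to the handling of tissue, moved with these lists. Of 30 such genes, 21 were lower and 2 higher. Their summed level ranged from 10785 to 12604 CPM on HFD and from 21947 to 28029 CPM on SD, and none was at 0 in all libraries of a group. The orphan nuclear receptors Nr4a2 (46.8, 71.1, 67.4 and 82 CPM on HFD and 471, 422, 367 and 369 CPM on SD, -2.61 ± 0.24) and Nr4a3 (-2.53 ± 0.38) fell most, and Fos stood at 877 to 1343 CPM on HFD and 1339 to 1936 CPM on SD (-0.61 ± 0.20), a call lost without HFD replicate 2 (-0.53). Jun was not called (-0.23 ± 0.19, adjusted p = 0.365). The raised pair, Dusp4 (18.7, 13.5, 12.5 and 16.2 CPM on HFD and 1.46, 2.65, 1.34 and 2.41 CPM on SD, 2.96 ± 0.33) and Dusp6 (72.5 to 90.7 CPM on HFD and 31.5 to 50.5 CPM on SD, 1.04 ± 0.19), encode phosphatases of MAP kinases. Their part in the change of the cytokine and NF-kB genes was not tested.

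Enzymes and receptors of the eicosanoids moved in both directions. Of 24 genes, 5 were higher and 9 lower. Hpgds, the haematopoietic synthase of prostaglandin D (chromosome 6, 65117293 to 65144981), stood at 210, 146, 152 and 149.7 CPM on HFD and 4, 9.74, 8.93 and 8.21 CPM on SD (4.42 ± 0.23, adjusted p = 9.1e-15). Hpgd, which inactivates prostaglandins, stood at 179, 145, 183 and 102 CPM on HFD and 34.7, 40.9, 34.7 and 25.7 CPM on SD (2.16 ± 0.35). Both lay higher in every HFD library. The cyclooxygenases Ptgs1 (17.1, 29.97, 23.4 and 17.6 CPM on HFD and 99.3, 102, 83.7 and 202 CPM on SD, -2.47 ± 0.30) and Ptgs2 (22.1 to 57.1 CPM on HFD and 98.6 to 119 CPM on SD, -1.62 ± 0.42) were lower. So were the leukotriene enzymes Alox5 (25.7, 37.8, 26.9 and 25.6 CPM on HFD and 103, 84.1, 91.3 and 155 CPM on SD, -1.90 ± 0.23) and Lta4h (-1.15 ± 0.08), the leukotriene receptor Ltb4r1 (9.06, 35.5, 20.1 and 25.8 CPM on HFD and 375, 265, 296 and 497 CPM on SD, -3.98 ± 0.39) and the prostacyclin receptor Ptgir (-2.16 ± 0.24).

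Among 13 CC chemokines, 2 were higher and 6 lower, with 1 higher without HFD replicate 2, HFD replicate 3 or SD replicate 4. Ccl24, an eosinophil attractant, stood at 8.85, 16.6, 16 and 15.7 CPM on HFD and 129, 96.4, 130 and 158 CPM on SD (-3.16 ± 0.32, adjusted p = 2.67e-09), Ccl6 at 2238 to 2948 CPM on HFD and 5438 to 5992 CPM on SD (-1.12 ± 0.16) and Ccl3 at 52.7 to 107 CPM on HFD and 25.3 to 29.9 CPM on SD (1.43 ± 0.31). Ccl22, a ligand of the receptor CCR4, stood at 5.43 to 21.2 CPM on HFD and 27.6 to 97 CPM on SD (-1.88 ± 0.53, and -1.29 without SD replicate 2). Among 13 CXC chemokines, 3 were higher and 1 lower, 2 without HFD replicate 1 or SD replicate 4. Cxcl14 (35.5, 24.9, 25.2 and 20.4 CPM on HFD and 1.14, 1.4, 1.07 and 1.43 CPM on SD, 4.39 ± 0.42) and the scavenger receptor ligand Cxcl16 (1.51 ± 0.16) were higher, and Cxcl10, an interferon-induced attractant of T cells, was lower (8.16 to 19.7 CPM on HFD and 85.9 to 144 CPM on SD, -2.91 ± 0.44). Of 30 chemoattractant receptors, 12 were higher and 6 lower. Ccr2, the receptor that brings monocytes into tissue (chromosome 9, 124101918 to 124109140), stood at 299, 373, 353 and 482 CPM on HFD and 2119, 1798, 1849.8 and 1493 CPM on SD (-2.27 ± 0.20, adjusted p = 1.65e-10). Ccr3, the eotaxin receptor and also an eosinophil marker, rose instead (23.9, 13.1, 16.5 and 12.5 CPM on HFD and 0.682, 0.579, 0.909 and 0.782 CPM on SD, 4.48 ± 0.49). Of 45 cytokine receptors, 15 were higher and 17 lower. The TGF-beta receptor Tgfbr1 was among the raised (287 to 343 CPM on HFD and 45.2 to 73 CPM on SD, 2.42 ± 0.19). The receptor of IL-33, Il1rl1, was among the lowered (37.8 to 42 CPM on HFD and 155 to 214 CPM on SD, -2.23 ± 0.21), as was that of IL-36, Il1rl2 (-3.62 ± 0.34).

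Antigen presentation genes were lower. In the MHC class II list 10 of 14 were lower and 1 higher, 2 without SD replicate 4 (median -1.03). Chaperones that load the peptide were among the largest falls. H2-DMb2 stood at 3.74, 8.93, 8.63 and 5.84 CPM on HFD and 135, 104, 126 and 198 CPM on SD (-4.37 ± 0.30) and H2-DMa at 371, 464, 455 and 367 CPM on HFD and 1550.1, 1158, 1295 and 2113 CPM on SD (-1.88 ± 0.16). Of the antigen-binding chains, H2-Ab1 (chromosome 17, 34263227 to 34269418) stood at 7057, 8169, 8569 and 6135 CPM on HFD and 18266, 16553, 15666 and 20516 CPM on SD (-1.25 ± 0.13, adjusted p = 6.88e-09). H2 genes are a multigene family, so the split of reads among close copies such as H2-DMb1 (-1.44 ± 0.14) and H2-DMb2 is uncertain. In the MHC class I list 8 of 18 were lower and 1 higher, all within -0.83 to 0.42, among them the immunoproteasome subunit Psmb8 (161 to 208 CPM on HFD and 279.9 to 386 CPM on SD, -0.83 ± 0.11). None was higher in the fits without HFD replicate 1, 3 or 4 or without SD replicate 1, 3 or 4, and 6 were lower without SD replicate 4. Among 20 co-stimulatory and checkpoint genes, 5 were higher and 9 lower. Cd80 (3.32 to 4.65 CPM on HFD and 15.9 to 22.4 CPM on SD, -2.20 ± 0.18), Icosl (-1.80 ± 0.16) and the glycoprotein Cd24a (13.4, 27.8, 14.8 and 22.1 CPM on HFD and 289, 240.4, 282 and 259 CPM on SD, -3.78 ± 0.32) were lower, and the T cell inhibitor Havcr2 was higher (1.84 ± 0.28). In the interferon response 10 of 42 were higher and 12 lower, shares near the 23.8% and 22.6% of all genes. The guanylate-binding protein Gbp3 was at 13.6 to 30.7 CPM on HFD and 70.8 to 142 CPM on SD (-2.32 ± 0.26) and Oasl1 at 11.9 to 26.4 CPM on HFD and 3.68 to 9.84 CPM on SD (1.47 ± 0.25). The number higher was 5 without HFD replicate 1 and 6 without SD replicate 3.

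Monocyte markers and those of dendritic cells in general and of type 2 were more often lower than higher as well. Of 17 markers of such dendritic cells, 9 were lower and 1 higher. Zbtb46, a transcription factor of classical dendritic cells, stood at 3.37, 6.25, 3.57 and 5.36 CPM on HFD and 15.5, 15.8, 17.4 and 15.7 CPM on SD (-1.79 ± 0.23), and Cd226 at 10.7, 36.8, 22.3 and 19 CPM on HFD and 325, 205, 305 and 243 CPM on SD (-3.60 ± 0.29). The list's summed level ranged from 1929 to 2217 CPM on HFD and from 2047 to 2459 CPM on SD, ranges that overlap, and no member was at 0 in all libraries of a group. All 9 lowered members fell by over 2-fold and the median change was -1.53, so the overlapping sums do not mean that the members stayed level. For type 1 dendritic cells 5 of 14 markers were higher and 4 lower. The defining receptors Xcr1 (1.66 to 6.9 CPM on HFD and 3.05 to 6.08 CPM on SD) and Clec9a (1.81 to 2.85 CPM on HFD and 1.14 to 2.89 CPM on SD) were low on both diets and not called, except that Xcr1 passed the threshold without HFD replicate 4 (-1.14). Of the others, the adhesion molecule Cadm1 was higher (253 to 368 CPM on HFD and 12.7 to 40.5 CPM on SD, 3.53 ± 0.28) and the transcription factor Batf3 lower (19.6, 26.3, 20.2 and 18.4 CPM on HFD and 112, 91.6, 104 and 112 CPM on SD, -2.31 ± 0.13). For mature dendritic cells 4 of 19 were higher and 5 lower. Of 17 monocyte markers, 11 were lower and 1 higher, with 7 lower without SD replicate 2 and 8 without SD replicate 4. The defining marker Ly6c2 was at 0.29 to 0.737 CPM on HFD and 0.455 to 0.912 CPM on SD and not called. The list's sum ranged from 5362 to 6283 CPM on HFD and from 16509 to 26091 CPM on SD. Fn1, fibronectin, was a large part of the sum on SD and a smaller part on HFD (956, 1524, 1166 and 1918 CPM on HFD and 10740.2, 8092, 9505 and 17318 CPM on SD, -3.04 ± 0.40). The part of these markers in the change of the antigen presentation genes was not tested.

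**Figure D4:**
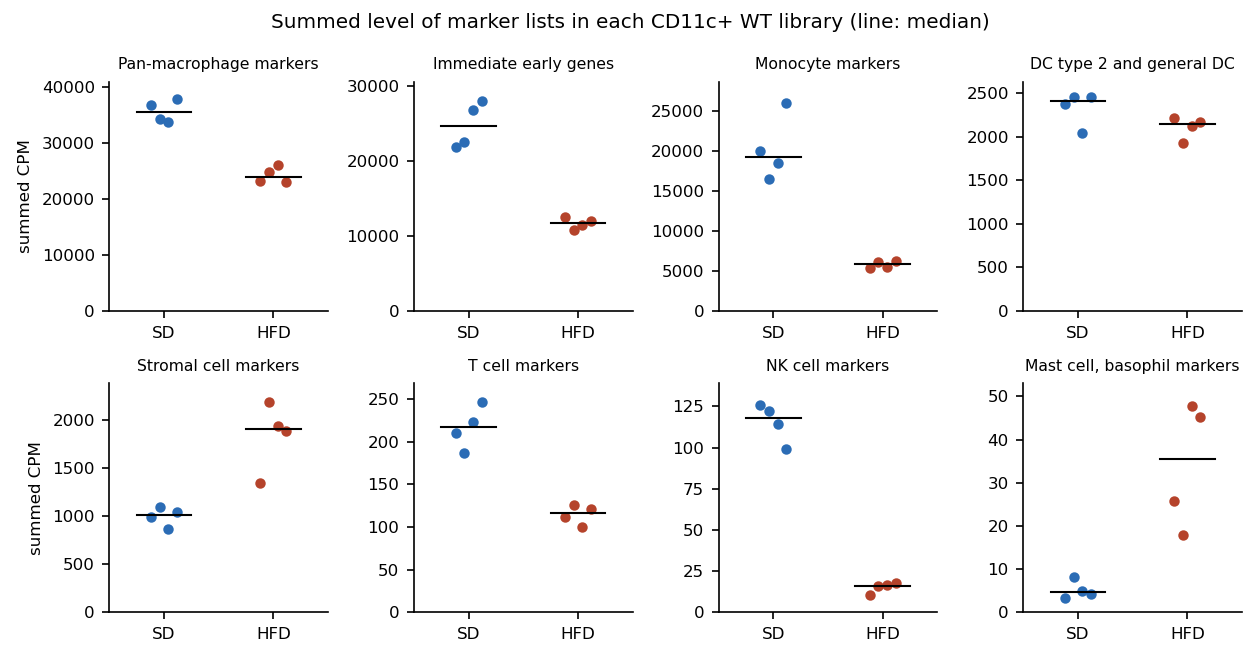
Each panel gives the summed CPM of 1 marker list in the 4 SD (blue) and 4 HFD (red) libraries of CD11c+ WT cells, with a black line at the median and an axis from 0. Sums of immediate early, monocyte, pan-macrophage, T cell and NK cell lists are lower on HFD, and those of stromal and mast cell lists higher. On SD, Lyz2, Cd2 and Klrk1 make up most of the pan-macrophage, T cell and NK cell sums. The dendritic cell sums overlap, although 9 of 17 tested members are lower.

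Of 19 genes of alternative activation, 11 fell and 2 rose (median -1.88). Retnla, a secreted protein induced by IL-4 (chromosome 16, 48842609 to 48844461), stood at 702, 1711, 1228 and 741 CPM on HFD and 21437, 14564, 13140.1 and 23768 CPM on SD (-4.06 ± 0.46). Irf4, a transcription factor of that programme, stood at 24, 26.7, 18.6 and 35.8 CPM on HFD and 165, 136, 167 and 130.5 CPM on SD (-2.51 ± 0.23). Every SD library was above every HFD library for both. Of 27 resident macrophage genes, 11 were higher and 5 lower, with 9 lower without SD replicate 1 and 8 lower by DESeq2. By over 2-fold, 10 were higher and 5 lower, and the list ranged from -4.06 to 5.31, so it moved in both directions. The members given next are among the raised. Folr2, the folate receptor beta (chromosome 7, 101839988 to 101857190), stood at 401, 284, 326 and 234 CPM on HFD and 11.8, 40.2, 20.4 and 36 CPM on SD (3.53 ± 0.34, adjusted p = 8.64e-10), and the chemokine Pf4 was at 171 to 335 CPM on HFD and 73.2 to 112 CPM on SD (1.51 ± 0.20). Of 42 macrophage transcription factors, 8 were higher and 22 lower. Runx3 stood at 2.16, 4.44, 3.52 and 4.2 CPM on HFD and 36.2, 28.9, 26 and 29.3 CPM on SD (-3.07 ± 0.30, adjusted p = 1.38e-09), Irf8 at 231 to 301 CPM on HFD and 40.2 to 127 CPM on SD (1.58 ± 0.22) and Pparg at 100.3 to 112 CPM on HFD and 63.2 to 75.4 CPM on SD (0.56 ± 0.19, adjusted p = 0.0167), a call lost without HFD replicate 3 (0.50).

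In glycolysis 6 of 25 genes were higher and 11 lower, and 9 and 7 without SD replicate 4. The glucose transporters Slc2a6 (25.8, 31.7, 29.8 and 35 CPM on HFD and 148, 146, 153 and 278 CPM on SD, -2.57 ± 0.35) and Slc2a3 (-1.88 ± 0.28), the hexokinase Hk2 (-1.32 ± 0.30) and the lactate exporter Slc16a3 (29.8 to 62.4 CPM on HFD and 129 to 239 CPM on SD, -1.95 ± 0.30) were lower. The neuronal enolase Eno2 (8.53, 6.25, 6.64 and 5.84 CPM on HFD and 0.318, 0.482, 0.481 and 0.261 CPM on SD, 4.11 ± 0.36) and the pyruvate dehydrogenase kinase Pdk1 (68.2 to 82 CPM on HFD and 13.3 to 18.9 CPM on SD, 2.13 ± 0.13) were higher. Of 23 hypoxia genes, 5 were higher (3 without HFD replicate 3) and 5 lower, shares near those of all genes, with Hif1a at 132 to 151 CPM on HFD and 247 to 311 CPM on SD (-0.99 ± 0.17). Of 28 genes of the tricarboxylic acid cycle, 4 were higher and 9 lower, all modest, such as -0.61 ± 0.07 for the malate dehydrogenase Mdh2. In the unfolded protein response 4 of 25 were higher and 12 lower (7 without SD replicate 2), among them Atf4 (90.6 to 103 CPM on HFD and 162 to 195 CPM on SD, -0.82 ± 0.12) and Ppp1r15a (-1.25 ± 0.17). Amino acid transporters were higher in 6 of 17 cases and lower in 7, against 23.8% and 22.6% of all genes. The arginine transporter Slc7a2, a raised one, stood at 16.1 to 31.7 CPM on HFD and 1.07 to 3.71 CPM on SD (3.12 ± 0.44). Arginine, nitric oxide, itaconate and polyamine enzymes were higher in 3 of 14 and lower in 4. By DESeq2, with RLE size factors, with no low-count filter, and without HFD replicate 1, 3 or 4 or SD replicate 4, 1 was higher. Of 9 genes of catecholamine handling, 4 were higher and 2 lower (1 without SD replicate 4), with the monoamine oxidase Maoa at 36.3, 28, 36.5 and 32.9 CPM on HFD and 2.96, 6.9, 4.49 and 4.24 CPM on SD (2.84 ± 0.26) and the aldehyde dehydrogenase Aldh2 at 1.00 ± 0.11. A pair of adrenergic receptors exchanged places in this list. Adra1a, an alpha-1 receptor, stood at 7.11, 5.52, 6.59 and 5.07 CPM on HFD and 0.182, 0, 0 and 0.13 CPM on SD, and Adra2a, an alpha-2 receptor, at 0.158, 0, 0.204 and 0.0483 CPM on HFD and 4, 4.82, 3.05 and 21.5 CPM on SD. So few reads carry the lower diet of each that no fold is given.

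Ribosomal protein genes fell as a block. Of 77 tested, 76 were lower and 0 higher, between -1.30 and -0.45 (median -0.73). Rpsa, a protein of the small subunit, stood at 287, 296, 300.2 and 261 CPM on HFD and 596, 538, 566 and 665 CPM on SD (-1.05 ± 0.10, adjusted p = 7.93e-10). Without SD replicate 4 the counts were 75 lower and 0 higher, so the fall is as wide without that library. Transcript length moved with it. Among the 92.9% of tested genes with a length in GENCODE vM21, the group with the shortest transcripts, of 4 equal groups, had a median change of -0.146 (1033 lower, 547 higher), and the other groups 0.0073, 0.0889 and 0.085 in rising order of length. Of 76 ribosomal genes with a length, 70 were in the shortest group, which had a median of -0.130 without them. The part of length in the fall was not tested. Many ribosomal protein genes have processed copies, which can draw reads.

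Growth factor and matrix genes were higher in 24 of 48 cases and lower in 10 (median 0.78). Gdf3, a growth factor of the TGF-beta family, stood at 46.7, 23.4, 45.1 and 38.7 CPM on HFD and 6, 7.67, 1.98 and 3.84 CPM on SD (2.96 ± 0.44), while Areg and Fn1, given above, and the clotting factor subunit F13a1 (248 to 426 CPM on HFD and 1027 to 1589.6 CPM on SD, -1.96 ± 0.22) were among the lowered. Of 29 integrins and adhesion genes, 8 were higher and 10 lower, against 23.8% and 22.6% of all genes. The laminin receptor chain Itga6 (99.1, 77.8, 68 and 92.6 CPM on HFD and 5.23, 11.7, 5.51 and 8.99 CPM on SD, 3.43 ± 0.28) was raised, and the leukocyte chains Itgal (7.08 to 16.6 CPM on HFD and 34.9 to 69.6 CPM on SD, -2.13 ± 0.34) and Itgb7 (14.2 to 54 CPM on HFD and 129 to 279 CPM on SD, -2.58 ± 0.31) were lowered. Of 50 cell cycle genes only 6 were higher and 7 lower, a share below that of all genes. Among them Ccnd2, a D-type cyclin, stood at 7.53 to 19.9 CPM on HFD and 48.5 to 59.1 CPM on SD (-1.92 ± 0.24) and its partner kinase Cdk6 at 14.7 to 24.9 CPM on HFD and 4.24 to 6.26 CPM on SD (1.87 ± 0.20).

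Markers of other cell types were read for the cells a sort of fat could hold. More stromal and mast cell genes were higher than lower, and the eosinophil, B cell and adipocyte lists took most of their level from 1 gene each. On SD the T cell and NK cell lists did so too. Stromal genes were higher in 13 of 20 cases and lower in 1, with a sum of 1344 to 2187 CPM on HFD and 865 to 1094 CPM on SD. The collagen Col1a1 stood at 17.9, 66.2, 51.8 and 56.1 CPM on HFD and 8.5, 17.6, 7.81 and 4.3 CPM on SD (2.31 ± 0.52) and the proteoglycan Lum at 15.3 to 37.9 CPM on HFD and 0.977 to 5.27 CPM on SD. Mast cell genes were higher in 7 of 9, at low levels such as 2.2 to 8.42 CPM on HFD and 0.0535 to 0.0965 CPM on SD for the carboxypeptidase Cpa3 and 4.78 to 16.5 CPM on HFD and 0.227 to 0.481 CPM on SD for the tryptase Tpsb2. T cell genes were lower in 6 of 16 and higher in 1, with a sum of 100.1 to 126 CPM on HFD and 187 to 246 CPM on SD. Without HFD replicate 2 or SD replicate 4, 2 were lower, and without HFD replicate 4 or SD replicate 2, 3. The defining Cd3e was at 0.145 to 1.23 CPM on HFD and 1.59 to 3.78 CPM on SD, a call lost without HFD replicate 2, HFD replicate 4 or SD replicate 4. In contrast, Cd2, an adhesion molecule, stood at 6.85, 14.1, 8.73 and 8.01 CPM on HFD and 177, 136, 185 and 205 CPM on SD (-4.22 ± 0.37). Cd2 made up most of the T cell sum on SD and little of it on HFD. The lower sum on HFD thus comes from Cd2 and does not stand for the list. The members did not stay level, with a median change of -1.015, and all 6 lowered members fell by over 2-fold. Of the 16 members, 10 were below 1 CPM in all 4 HFD libraries. Of 10 NK cell genes 3 were lower, and the list summed to 10.7 to 17.8 CPM on HFD and 99 to 126 CPM on SD. The receptor Klrk1 stood at 4.53, 8.2, 7.3 and 8.64 CPM on HFD and 109.7, 99, 98.4 and 83.1 CPM on SD (-3.76 ± 0.24) where the defining Ncr1 was at 0 to 0.0965 CPM on HFD and 0 to 0.261 CPM on SD. Most of the NK cell sum on SD came from Klrk1. Eosinophil genes were higher in 1 and lower in 4 of 7, with a sum of 50.2 to 64.8 CPM on HFD and 195 to 299 CPM on SD. Most of it came from the ribonuclease Ear2 (23.7 to 47.4 CPM on HFD and 168 to 272 CPM on SD, -2.55 ± 0.31), and Epx, an enzyme of eosinophil granules, was at 0. Neutrophil genes were higher in 1 and lower in 1 of 9. B cell genes were higher in 2 and lower in 0 of 11, with a sum of 285 to 347 CPM on HFD and 210 to 326 CPM on SD, most of it from the adaptor Blnk (245 to 303 CPM on HFD and 178 to 211 CPM on SD), and with Pax5 at 0. Adipocyte genes were higher in 2 and lower in 3 of 15, with 1 higher without HFD replicate 1, HFD replicate 2, SD replicate 3 or SD replicate 4. Their sum was 6127 to 7649 CPM on HFD and 2739 to 3906 CPM on SD. Nearly all of it came from Lpl, the lipoprotein lipase, which macrophages also make (5725 to 7401 CPM on HFD and 2399 to 3693 CPM on SD, 1.12 ± 0.24), and the defining Adipoq was at 0.46 to 1.79 CPM on HFD and 0.456 to 1.34 CPM on SD. Endothelial genes were higher in 1 and lower in 0 of 14, mesothelial in 0 and 0 of 11 (1 and 1 without HFD replicate 2), and erythroid and platelet genes in 1 and 0 of 5 (2 higher without SD replicate 1, 1 lower without HFD replicate 3). The part of stromal cells in the raised matrix genes, and that of the other types in the changes above, was not tested.

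The same diet change was next set against that of CD206+ cells from WT mice. There 3728 genes (27.7%) were called, and 4363 (32.4%) had a change that differed between the populations. No library is shared by the 2 changes. Of the genes called in both populations, 1809 moved in the same direction and 395 in opposite directions. Of the genes called in CD11c+ cells, 3421 differed from CD206+ cells. Blvrb, named above with the iron genes, had 1.82 ± 0.14 in CD11c+ and -0.49 ± 0.13 in CD206+ cells (difference 2.31 ± 0.19, adjusted p = 1.53e-09). Folr2 moved in opposite directions, with 3.53 ± 0.34 and -1.01 ± 0.31 (difference 4.54 ± 0.46, adjusted p = 2.57e-08). For Msr1 the values were 2.80 ± 0.16 and 0.24 ± 0.15 (difference 2.55 ± 0.21, adjusted p = 1.53e-09). Among lowered genes, Il1b had -2.01 ± 0.32 and 0.36 ± 0.31 (difference -2.36 ± 0.44, adjusted p = 0.000141) and Runx3 -3.07 ± 0.30 and 0.22 ± 0.31 (difference -3.29 ± 0.43, adjusted p = 1.26e-06). Spp1 differed the other way, with the larger rise in CD206+ cells (5.28 ± 0.59, difference -1.97 ± 0.72, adjusted p = 0.0368).

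By list, 74 of 77 ribosomal protein genes, 12 of 20 iron genes, 11 of 22 complement genes and 17 of 31 lysosomal genes had a lower (ribosomal) or higher (the others) change in CD11c+ cells, against 2156 (16%) and 2207 (16.4%) of all genes. The vacuolar ATPase list differed in few members (2 higher and 3 lower of 19), and in CD206+ cells 13 of its genes were higher. For the lipid-associated list the difference was higher in 9 and lower in 9 of 30. Cell cycle genes, few of which moved in CD11c+ cells, were higher in 31 of 50 cases in CD206+ cells, where 14.2% of all genes were, and the difference was called lower in 17.

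In CD11c+ cells of KO mice the same diets gave a change in 1 gene (0.00743%), higher on HFD, by edgeR's quasi-likelihood test. At an unadjusted p under 0.05 there were 1221 genes (9.08%), and DESeq2 called 47. Without KO HFD replicate 1 edgeR called 80 genes, without replicate 4 of that group 16, without replicate 2 of it 2, and without KO SD replicate 1 it called 3. Without KO HFD replicate 3, KO SD replicate 2 or KO SD replicate 3 it called 0. The difference between WT and KO was called for 3877 genes (28.8%). It was called for 3764 of the genes called in WT cells. Rhoc, a small GTPase, had 2.21 ± 0.11 in WT and 0.06 ± 0.11 in KO cells (difference 2.15 ± 0.15, adjusted p = 1.27e-10), and Rasa1, a brake on Ras, 2.36 ± 0.12 and 0.05 ± 0.12 (difference 2.31 ± 0.17, adjusted p = 1.27e-10). Il6 had -5.16 ± 0.43 and -1.05 ± 0.36 (difference -4.11 ± 0.53, adjusted p = 7.41e-07), Ctsl 3.07 ± 0.20 and 0.89 ± 0.19 (difference 2.19 ± 0.26, adjusted p = 2.58e-07), and Rpsa -1.05 ± 0.10 and -0.06 ± 0.10 (difference -0.99 ± 0.14, adjusted p = 3.44e-06). For some genes the difference was not called. Angptl4 had 1.42 ± 0.41 and 1.79 ± 0.42 (difference -0.37 ± 0.57, adjusted p = 0.679), Slc40a1 2.47 ± 0.56 and 2.53 ± 0.61 (difference -0.06 ± 0.80, adjusted p = 0.965) and Plin2 1.37 ± 0.21 and 0.87 ± 0.21 (difference 0.50 ± 0.30, adjusted p = 0.219). An interval of 2 SE around the difference reaches beyond 1 in size for all 3 genes, so the data do not show that these changes were alike.

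**Figure D5:**
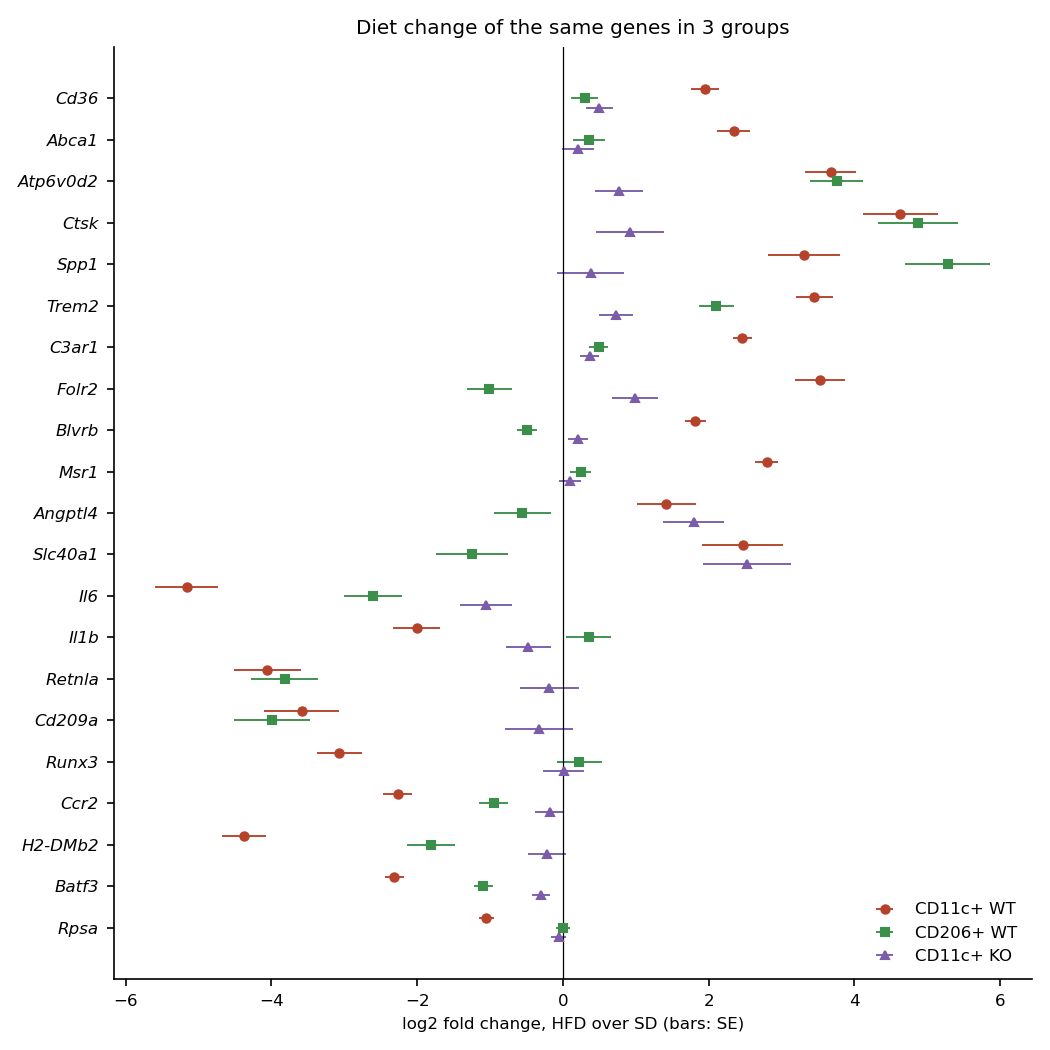
Points give the log2 fold change of HFD over SD, with the SE as bars, for 21 genes in CD11c+ WT (red circles), CD206+ WT (green squares) and CD11c+ KO cells (purple triangles). KO changes are smaller in size than those of CD11c+ WT cells for every gene shown except Slc40a1 and Angptl4, and Folr2 and Blvrb lie on opposite sides of 0 in the 2 WT populations.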

How the data were processed

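RNA of sorted cells was sequenced in 32 libraries. Values are whole-number read counts per gene, as the authors deposited them (24421 genes per library after the 5 summary rows were dropped, 5.96 to 7.78% of reads in no gene and 1.16 to 1.28% ambiguous in the 8 libraries described). The submitters' processing notes name mm10 (GRCm38), TopHat2 2.1.0, SAMtools 0.1.18, Trimmomatic 0.35 and FastQC 0.11.4. The sources used here give no counting program, annotation or strand setting, so reads of overlapping, antisense or near-identical genes cannot be told apart. Counts were fitted with edgeR 4.0.16 (R 4.3.3, limma 3.58.1) over all 32 libraries with 8 group means, after its expression filter (minimum count 10) and TMM scaling, by the quasi-likelihood test with Benjamini-Hochberg adjustment over 13453 genes. The SE is the log2 fold change divided by the root of the F statistic. The differences between diet changes are contrasts of the same fit. The scripts were tested on simulated data first.

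In WT mice, CD11c+ and CD206+ libraries of one number deviated together (r 0.143 to 0.468 over genes, every library best with its own number), so their numbers pair them. Same-numbered HFD and SD libraries did not (r -0.0817 to 0.142).

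The 62 lists, the comparison and its members were chosen with earlier results of these data known. Named genes were, among those called with 10 CPM or more in the higher diet, the 15 highest and 15 lowest changes with no overlap of diets and up to 5 of each list with the largest change (where fewer than 2, up to 2 with the smallest p). Added were 10 per direction for each difference between changes, and in any case the sort's genes and macrophage markers. A few genes that the rule names are not reported here. Further genes were named after their values were seen: Adipoq, Adra1a, Adra2a, Cd3e, Clec9a, Dcstamp, Dusp6, Eno2, F13a1, Fos, Gm2a, Jun, Ly6c2, Ncr1, Tfe3, Tfeb, Tfec, Tlr2, Tnf, Xcr1 and Zbtb46. The length check and the fits without single CD206+ or KO libraries were also added after the data were seen. Positions are those of RefSeq on GRCm38.p6. A total of 14 alternatives was run for the main comparison, DESeq2 1.42.0 among them.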

Additional observations from a re-analysis of the deposited data

Results flagged for a closer look

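Single libraries that stood far from the other 3 of their diet were found in 27 of 406 groups of 4 libraries (the 203 genes named, each diet on its own) by Dixon's test at its 95% critical value, where chance gives about 1 in 20. The library HFD replicate 1 lay above the others for Fgf13 (30.8 CPM against 18.6 to 19.9 CPM), Hpgds (210 CPM against 146 to 152 CPM), Mvd (13 CPM against 11.7 to 11.9 CPM), Rasa1 (538 CPM against 408 to 429 CPM) and Zranb3 (209 CPM against 99.6 to 114 CPM). Library HFD replicate 1 lay below the others for Ccl24 (8.85 CPM against 15.7 to 16.6 CPM), Mefv (1.58 CPM against 5.72 to 6.56 CPM) and Traf1 (16.6 CPM against 22.1 to 22.4 CPM). The library HFD replicate 4 lay above the others for Clec9a (2.85 CPM against 1.81 to 1.9 CPM) and Hk2 (16.9 CPM against 11.5 to 12.4 CPM). Library HFD replicate 4 lay below the others for Cd163 (48.5 CPM against 68.9 to 72.9 CPM) and Tlr2 (429.6 CPM against 524 to 541 CPM). The library HFD replicate 2 lay above the others for Alox5 (37.8 CPM against 25.6 to 26.9 CPM) and Il1rl1 (42 CPM against 37.8 to 38.3 CPM). Library HFD replicate 2 lay below the others for Lgmn (1298 CPM against 1372 to 1387 CPM). The library HFD replicate 3 lay above the others for Pparg (112 CPM against 100.3 to 102 CPM). Library HFD replicate 3 lay below the others for Smpd3 (69.95 CPM against 88.5 to 90.2 CPM). The library SD replicate 4 lay above the others for Adra2a (21.5 CPM against 3.05 to 4.82 CPM), Cd68 (967 CPM against 677 to 713 CPM), Omp (26.6 CPM against 11.3 to 13.4 CPM), Ptgs1 (202 CPM against 83.7 to 102 CPM), Slc2a6 (278 CPM against 146 to 153 CPM) and Tfe3 (215 CPM against 159 to 167 CPM). The library SD replicate 2 lay above the others for Il10 (11 CPM against 8.34 to 8.64 CPM) and Slc2a3 (20.9 CPM against 15.2 to 16.1 CPM). Library SD replicate 1 lay below the others for Tnfaip2 (65.8 CPM against 75.3 to 76 CPM). The library SD replicate 3 lay above the others for Zbtb46 (17.4 CPM against 15.5 to 15.8 CPM). SD replicate 4, which also stood apart on the second component, is the high library for the genes listed under it, and their changes keep their direction without it.

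The diet change of 4363 genes differed between CD11c+ and CD206+ WT cells, and that of 3877 genes between WT and KO CD11c+ cells, by the contrast of the 2 changes in edgeR's fit. The genes given here are examples and not all the genes described whose difference was called. On the log2 scale, the difference from CD206+ cells was called for Blvrb (2.31), Folr2 (4.54), Msr1 (2.55), Il1b (-2.36), Runx3 (-3.29) and Spp1 (-1.97). The difference from KO cells was called for Rhoc (2.15), Rasa1 (2.31), Il6 (-4.11), Ctsl (2.19) and Rpsa (-0.99).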

How the results depend on the processing

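Under the 14 alternatives, the genes called in the main comparison numbered 5468 to 6424 against 6234, and 5734 to 6156 where 1 library was left out. Over 2-fold there were 1681 to 2555 against 2436. Those that differed from CD206+ cells numbered 3907 to 5771 against 4363, and those that differed from KO cells 3370 to 4110 against 3877. A fit of the 16 WT libraries alone gave 4445, and with the pairing of same-numbered CD11c+ and CD206+ libraries as a replicate block within diet 5771. With the replicate number as a block, the main comparison gave 6355 genes, although the numbers were not seen to pair the diets, and only HFD replicates 2 and 4 correlated best with their own number. Over 2-fold, the CD206+ count was 770 with at least 5 CPM in 4 libraries, where fewer genes are tested, against 1220. The KO counts moved most. DESeq2 called 47 genes there (37 higher, 10 lower, 20 over 2-fold), and the block and the fit of only the groups compared called 0 (0 higher). Leaving out 1 library gave 0 to 80 genes, with 0 to 73 higher, 0 to 7 lower and 0 to 48 over 2-fold. The cause was not tested. Values under the alternatives numbered 4489, over 321 genes that the rule named or that were added, reported here or not. Among values called in the main fit or the alternative, 0 changed sign. Sign changes of values called in neither were not counted. The threshold was lost by 25 values in 10 genes and passed by 8 in 7 genes. Of 1736 counts of list members, 63 moved by over 1.5 times, 11 of them without SD replicate 4. With at least 5 CPM in 4 libraries, where fewer members are tested, 3 mast cell genes and 2 cytokines were called higher, and 2 T cell genes and 1 of catecholamine handling lower. At 17941996 reads or more per library, genes near or below 1 CPM rest on few reads.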
